A study of Homo sapiens with 6 samples.

Results

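Expression of 8 genes of the circadian output arm was examined in NCI-H1299 cells with and without norepinephrine (NE). They were the REV-ERB receptors NR1D1 and NR1D2, the ROR receptors RORA and RORB, the PAR-bZIP factors DBP, TEF and HLF, and the bZIP repressor NFIL3. They were chosen by gene symbol, and all 8 were among the 26025 genes of the deposited table. This line was established from a human non-small cell lung cancer. The Ctrl group (3 libraries) received vehicle and the NE group (3 libraries) received 10 µM NE for 48 h, both in medium with 2% serum after 8 to 12 h without it. The vehicle is named as DMSO in the sample titles and as PBS in the treatment description. Nothing in the records says that libraries of a group came from separate cultures, so the p-values measure only the spread between these libraries, which may be technical.

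The circadian clock is a transcriptional loop in which CLOCK and BMAL1 bind E-boxes and drive their own repressors, the PER and CRY proteins, together with a set of output regulators. Among these outputs, REV-ERB receptors bind heme and repress BMAL1 and NFIL3 through the REV-ERB/ROR element, and ROR receptors activate through that same element. DBP, TEF and HLF activate genes through the D-box, and NFIL3 competes with them there as a repressor. NE acts on β-adrenergic receptors, which raise cAMP and activate PKA and CREB.

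Values are normalized counts, that is, reads on a gene divided by a size factor of its library. Between 16852751 and 17979206 reads per library fell on genes, and 3 reads, taken as the detection floor, corresponded to 2.74 to 3.14 normalized counts. Ctrl replicate 3 stood apart from the other Ctrl libraries. The chi-square per degree of freedom between its reads and those of Ctrl replicates 1 and 2 was 50.03 and 45.8, against 2.88 between replicates 1 and 2 and 5.32 to 23.9 among NE libraries, and 7305 genes had no read in it, against 4829 and 4833. The libraries also differed in GC content. Across the 14955 tested genes with a GC value, the log2 fold change (NE minus Ctrl) had a Spearman correlation of -0.64 with the GC content of the exons, which is a description over genes that share the same 6 libraries. Each library's difference from the mean of all 6 correlated with GC content at 0.69, 0.66 and 0.14 in Ctrl replicates 1 to 3 and at -0.56 to -0.57 in the NE libraries. The trend thus separated the groups but also varied within Ctrl, where replicate 3 lay between the other Ctrl libraries and the NE libraries. Since it differs between the groups, technical GC bias and a response of GC-poor genes cannot be told apart. The fold changes of the tested genes are given with and without the trend. As a check of the treatment, 8 of 9 tested cAMP-response genes were called higher, with NR4A2 at 61.9 ± 3.71 in Ctrl and 5719 ± 54.4 in NE (SD, n = 3; log2 fold change 6.51). Of the markers examined, VIM (66719), KRT18 (22472) and KRT8 (12452) had high Ctrl means, whereas ALB was at 0 and NKX2-1 and PECAM1 were at 0.346 and 26.7.

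Of the 8 genes, 4 were called higher and 0 lower. A call required an adjusted p under 0.05 (limma, Benjamini-Hochberg over 15013 genes) and a log2 fold change of 1 or more in either direction. NR1D2, RORA, RORB and NFIL3 rose, TEF and NR1D1 fell by less than 2-fold, DBP did not pass the test, and HLF was below the minimum for testing. The 4 called higher stood against 7.47% of all tested genes called higher, and the 0 called lower against 6.55%. edgeR and DESeq2, run on the recovered reads, gave the same counts of 4 and 0. Over all 15013 tested genes, edgeR called 1057 higher and 1096 lower, and DESeq2 1099 and 1049. With the adjusted p alone, 4 rose (24.6% of all tested genes) and 2 fell (25.5%). The unadjusted p under 0.05 gave 4 and 2 as well, and its share over all tested genes was not counted. All NE libraries lay above all Ctrl libraries for 4 genes (29.7% of tested genes) and below them for 2 (28.9%). The median log2 fold change of the 7 tested genes was 1.19, against 0.01 over all tested genes. After the GC trend was removed from each library, 3 of them rose (13% of all tested genes) and 0 fell (19%), with the interval of TEF alone among the falls excluding 0 before adjustment, and the median was 0.57. In bulk RNA, fewer cells of a type and less RNA per cell cannot be told apart, which applies to every value given here.

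**Figure D1:**
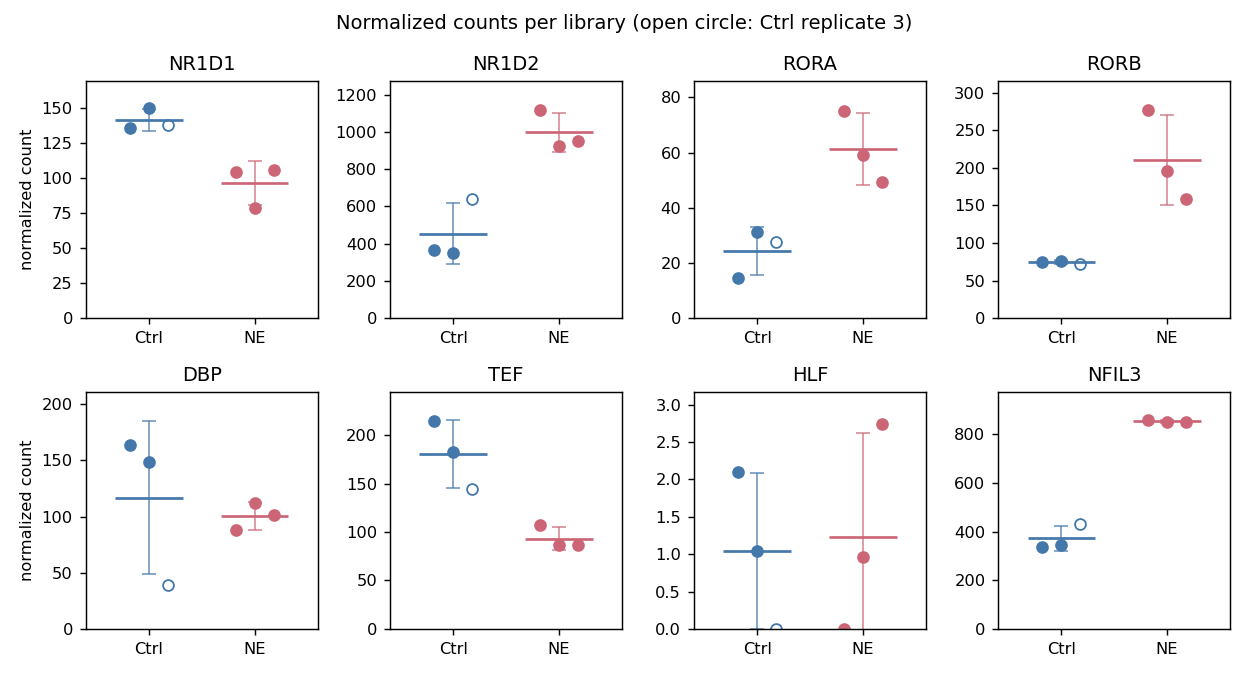
Normalized counts of the 8 genes in each library (points), with the group mean (horizontal line) and SD (vertical bar, cut at 0), n = 3 per group. NFIL3, NR1D2, RORA and RORB were higher in every NE library than in every Ctrl library, NR1D1 and TEF were lower, and the DBP groups overlapped through Ctrl replicate 3 (open circle).

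The first comparison asked whether the REV-ERB pair moved together. NR1D1 (REV-ERBα, ENSG00000126368) spans 40092793 to 40100589 of chromosome 17 (hg38, minus strand), and NR1D2 (REV-ERBβ, ENSG00000174738) spans 23945286 to 23980617 of chromosome 3 (plus strand). Both encode heme-binding nuclear receptors that lack the activation helix and act as repressors. They are classical E-box targets, so the window from 250 bases before to 50 bases after each RefSeq start was read (GRCh38.p14). The motifs searched on both strands are in capitals. In NR1D1 (chr17:40100540-40100839, minus strand), AACGTG is the reverse complement of the E'-box CACGTT. In NR1D2 (chr3:23945871-23946170, plus strand), CACGTG is the E-box, TTACATAA the reverse complement of the D-box TTATGTAA, and TGACG the core of the cAMP response element (CRE).

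NR1D1: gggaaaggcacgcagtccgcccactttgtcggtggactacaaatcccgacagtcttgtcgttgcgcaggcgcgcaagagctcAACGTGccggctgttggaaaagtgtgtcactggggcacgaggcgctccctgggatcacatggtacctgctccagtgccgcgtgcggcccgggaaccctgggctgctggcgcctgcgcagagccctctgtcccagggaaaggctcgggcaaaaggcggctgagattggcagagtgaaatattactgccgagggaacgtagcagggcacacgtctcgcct
NR1D2: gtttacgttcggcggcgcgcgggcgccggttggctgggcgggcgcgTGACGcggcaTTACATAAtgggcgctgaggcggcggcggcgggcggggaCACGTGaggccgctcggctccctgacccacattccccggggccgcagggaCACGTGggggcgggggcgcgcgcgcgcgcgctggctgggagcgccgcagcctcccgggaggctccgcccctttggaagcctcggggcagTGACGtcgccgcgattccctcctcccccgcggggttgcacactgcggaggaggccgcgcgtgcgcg

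The 2 E-boxes of the NR1D2 window shown lay from -155 to -150 and from -105 to -100 relative to the start, and its D-box from -194 to -187. NR1D2 had another window, not shown, at its canonical start (chr3:23945036-23945335). That window held neither an E-box nor a D-box, and of the searched motifs only TGACG, from -1 to 4 on the opposite strand. The E'-box of NR1D1 lay from -168 to -163. Among 35116 promoter windows of the same length, 7.26% held CACGTG, 5.34% CACGTT, 1.01% a D-box (TTATGTAA or TTACGTAA) and 24.6% TGACG. A match is a description of the letters and not evidence of binding.

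NR1D2 was measured at 369, 351 and 642 normalized counts in Ctrl and at 1116, 924 and 950.3 in NE. The groups did not overlap, and the highest Ctrl value was that of replicate 3. The means were 454 ± 163 and 996.6 ± 104 (SD, n = 3), a 2.197-fold difference and a log2 fold change of 1.19 (95% interval 0.69 to 1.68, adjusted p = 0.00207). Without Ctrl replicate 3 the change was 1.46 (adjusted p = 2.85e-07). It was 0.57 with the GC trend removed, still past the threshold (adjusted p = 0.0155), but below the fold criterion.

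NR1D1 moved the other way. Its counts were 136, 150.4 and 138 in Ctrl and 105, 78.5 and 106 in NE, so that every NE library was below every Ctrl library. The means were 142 ± 7.69 and 96.4 ± 15.6, with a log2 fold change of -0.56 (95% interval -0.98 to -0.14, adjusted p = 0.0309). With the GC trend removed the change was -0.02 and not detectable (adjusted p = 0.945). The adjusted p also missed the threshold without Ctrl replicate 1 (0.0668), Ctrl replicate 2 (0.104) or NE replicate 2 (0.124), with no filter on the mean (0.065) and with the replicate number as a block (0.0694). The exons of NR1D1 share 473 bases, 17.98% of their length, with THRA on the opposite strand. The kit was not strand-specific by name and the strand setting of the counting is not given in the sources used here, so reads of both genes cannot be told apart there. THRA, the thyroid hormone receptor α, was at 218 ± 59.1 in Ctrl and 209.8 ± 49.5 in NE (log2 fold change -0.05, adjusted p = 0.887). Its change was 0.49 with the GC trend removed (adjusted p = 0.0727).

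The balance within the pair was read as the log2 ratio of NR1D2 to NR1D1 inside each library. It was 1.43, 1.22 and 2.21 in Ctrl and 3.40, 3.54 and 3.15 in NE, with no overlap. The means were 1.62 ± 0.522 and 3.36 ± 0.197 and differed by 1.75. An exact 2-sided permutation test gave p = 0.1, the smallest value that 3 libraries against 3 allow, and 0.15 after adjustment over the 3 ratios tested. With the GC trend removed the ratios were 2.28, 1.98 and 2.32 in Ctrl and 2.72, 3.03 and 2.62 in NE, a difference of 0.59 (exact p = 0.1). The groups still did not overlap.

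The ROR receptors were compared next. RORA (ENSG00000069667, chromosome 15 from 60488284 to 61229302, minus strand) and RORB (ENSG00000198963, chromosome 9 from 74497335 to 74693177, plus strand) encode activators that bind as monomers to the element REV-ERB also uses. RORA is broadly expressed, whereas RORB is known mainly from retina, pineal and brain. No searched motif was found in the RefSeq windows of either gene, which says only that these letters are absent there. The RORA window lay at chr15:60627481-60627780, inside the gene, and its canonical start at 61229302 was not searched.

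RORB was at 75.4, 76.7 and 71.5 normalized counts in Ctrl and at 277, 196 and 159 in NE. The 3 Ctrl libraries, replicate 3 included, lay close together, and every NE library was above them. The means were 74.6 ± 2.70 and 210.4 ± 60.2, a 2.82-fold difference and the largest log2 fold change among the 7 tested genes, at 1.45 (95% interval 0.96 to 1.94, adjusted p = 0.000796). It remained past the threshold with the GC trend removed (0.87, adjusted p = 0.0115).

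RORA was lower in number, at 14.7, 31.1 and 27.4 in Ctrl and 75.1, 59.1 and 49.3 in NE. The groups did not overlap, but the Ctrl libraries differed by more than 2-fold among themselves. The means were 24.4 ± 8.63 and 61.2 ± 13.0, with a log2 fold change of 1.34 (95% interval 0.56 to 2.11, adjusted p = 0.0103). The call was lost with the GC trend removed, at 0.70 (adjusted p = 0.125), and without NE replicate 1, at 1.18 (adjusted p = 0.0528). The antisense gene RORA-AS1 shares 564 bases (3.31%) with RORA exons and was itself below the minimum for testing.

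The log2 ratio of RORB to RORA was 2.29, 1.28 and 1.35 in Ctrl and 1.87, 1.71 and 1.67 in NE. The NE libraries lay inside the Ctrl range. The difference of 0.11 was not detectable with 3 libraries per group (exact permutation p = 0.9), and it ranged from -0.07 to 0.44 when single libraries were left out, so its sign was not fixed. After removal of the GC trend the difference was 0.18 (exact p = 0.6).

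**Figure D2:**
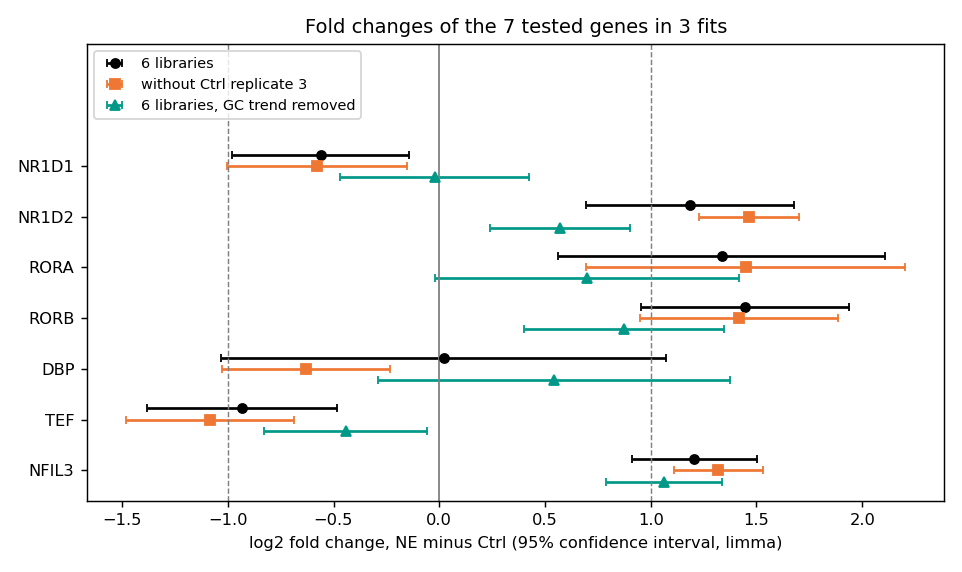
Log2 fold changes, NE minus Ctrl, of the 7 tested genes with 95% confidence intervals from limma. Black circles use 6 libraries, orange squares leave out Ctrl replicate 3 and green triangles use 6 libraries with the GC trend removed. NFIL3 moved least between these fits (1.21, 1.32 and 1.06), whereas NR1D1 went to -0.02 and DBP ranged from -0.63 to 0.54.

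The D-box regulators were examined as a group of activators and their repressor. DBP (ENSG00000105516, chromosome 19 from 48630030 to 48637379, minus strand), TEF (ENSG00000167074, chromosome 22 from 41367333 to 41399326, plus strand) and HLF (ENSG00000108924, chromosome 17 from 55264960 to 55325187, plus strand) encode the PAR-bZIP activators. NFIL3 (ENSG00000165030, chromosome 9 from 91409045 to 91423832, minus strand) encodes the bZIP repressor of the same sites. TEF held an E-box in both of its windows, of which that at chr22:41381692-41381991 (plus strand) is shown with CACGTG in capitals, from -193 to -188. NFIL3 is a known target of REV-ERB and ROR. Its window at chr9:91423783-91424082 (minus strand) held TGACCTA, the reverse complement of the REV-ERB/ROR element TAGGTCA, from -9 to -3. Its other window (chr9:91424577-91424876), not shown, held of the searched motifs only the CRE core, from -15 to -11.

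TEF: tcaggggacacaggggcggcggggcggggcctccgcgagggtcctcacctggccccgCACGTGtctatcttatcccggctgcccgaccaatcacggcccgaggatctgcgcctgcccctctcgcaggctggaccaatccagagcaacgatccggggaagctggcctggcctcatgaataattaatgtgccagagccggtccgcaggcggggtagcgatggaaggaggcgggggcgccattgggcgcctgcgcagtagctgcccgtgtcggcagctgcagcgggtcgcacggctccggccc
NFIL3: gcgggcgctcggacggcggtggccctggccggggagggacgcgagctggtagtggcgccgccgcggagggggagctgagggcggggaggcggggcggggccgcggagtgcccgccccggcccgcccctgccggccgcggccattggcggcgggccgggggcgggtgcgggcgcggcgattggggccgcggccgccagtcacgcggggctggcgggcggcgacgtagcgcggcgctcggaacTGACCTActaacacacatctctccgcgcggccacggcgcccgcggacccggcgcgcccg

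TAGGTCA was found in 1.85% of the 35116 windows. The full CRE, TGACGTCA, which contains the CRE core, was found in 1.85% of windows and, among the 8 genes, in HLF alone. The DBP window held none of the searched motifs.

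NFIL3 was increased with the smallest standard error of the 7 tested genes (0.131 on the log2 scale). It was at 336, 346 and 433 normalized counts in Ctrl and at 859.7, 850.4 and 850.7 in NE, and the groups did not overlap. The means were 372 ± 53.3 and 853.6 ± 5.28, a 2.30-fold difference and a log2 fold change of 1.21 (95% interval 0.91 to 1.50, adjusted p = 0.0002). With the GC trend removed the change was 1.06 (adjusted p = 0.000224), and NFIL3 alone of the 8 genes was then still called at the fold criterion.

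TEF was decreased. Its counts were 215, 183 and 144 in Ctrl and 107, 86.2 and 86.8 in NE, with every NE library below every Ctrl library. The means were 180.4 ± 35.4 and 93.2 ± 11.7, a ratio of 0.517, and the log2 fold change was -0.93 (95% interval -1.38 to -0.48, adjusted p = 0.00426), short of the fold criterion. Without Ctrl replicate 3 it was -1.09 (adjusted p = 0.000169) and met that criterion. With the GC trend removed it was -0.44 and did not pass (adjusted p = 0.0769).

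DBP depended on Ctrl replicate 3. It was at 163, 148 and 39.2 in Ctrl and at 87.9, 112 and 101 in NE. Replicate 3 was the lowest of all 6 libraries, and the other Ctrl libraries were the highest. The means of 117 ± 67.8 and 101 ± 12.2 gave a log2 fold change of 0.02 with a 95% interval from -1.03 to 1.07 (adjusted p = 0.9746). Without Ctrl replicate 3 it was -0.63 (95% interval -1.03 to -0.24, adjusted p = 0.0085), and with that library left out and the GC trend removed it was 0.01 (adjusted p = 0.963). DBP shares 661 bases (10.2% of its exons) with SPHK2 on the opposite strand, a sphingosine kinase gene that went from 366 ± 41.6 to 163 ± 15.7 (log2 fold change -1.16, adjusted p = 0.000412). SPHK2 was at -0.55 with the GC trend removed (adjusted p = 0.0143). Its part in the DBP values was not tested.

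HLF was at or below the floor. Its reads were 2, 1 and 0 in the Ctrl libraries and 0, 1 and 3 in the NE libraries, so no fold is given. In a fit with no filter on the mean (limma, 26025 genes) the 95% interval of its log2 fold change ran from -1.51 to 1.66 (adjusted p = 0.963), which leaves a change in either direction undetectable at this depth.

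The log2 ratio of NFIL3 to the sum of DBP, TEF and HLF was -0.18, 0.06 and 1.24 in Ctrl and 2.14, 2.09 and 2.149 in NE. In Ctrl replicates 1 and 2 the repressor and the summed activators were thus about equal in counts, and in all NE libraries the repressor was higher. The means of 0.37 ± 0.757 and 2.12 ± 0.0336 differed by 1.75 (exact permutation p = 0.1, 0.15 adjusted over the 3 ratios), and by 1.11 with the GC trend removed (exact p = 0.1). The groups did not overlap on either scale.

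**Figure D3:**
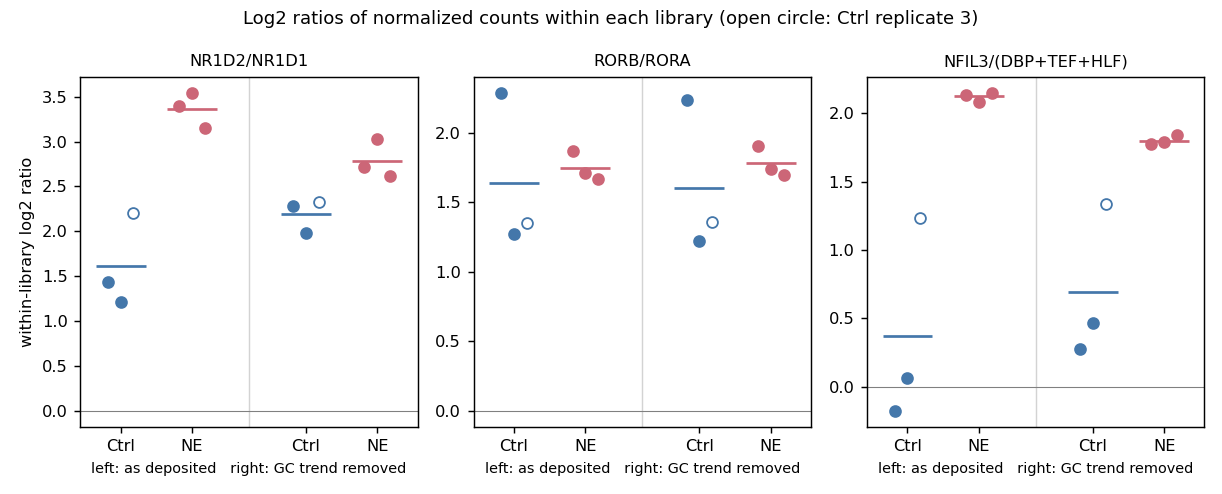
Log2 ratios of normalized counts within each library for NR1D2 to NR1D1, RORB to RORA, and NFIL3 to the sum of DBP, TEF and HLF, as deposited (left in each panel) and with the GC trend removed (right). Horizontal lines are group means, n = 3, and the open circle is Ctrl replicate 3. The first and last ratios were higher in every NE library, by 1.75 each as deposited, and the RORB to RORA groups overlapped.

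The fold changes followed the order of GC content in part. NR1D2 (39.1%), RORA (38.5%) and RORB (39.9%) were below 40% GC, where the median log2 fold change of 2505 tested genes was 0.67 and 19.7% were called higher. TEF (57.2%), DBP (58.2%) and NR1D1 (58.9%) were between 55% and 60%, where the median of 2131 genes was -0.56 and 13.9% were called lower. NR1D1, at -0.56, was at that median. NFIL3 (46.2%) lay between 45% and 50%, where the median of 2748 genes was 0.003 and 4.62% were called higher. The part of the GC trend in these changes was not tested apart from its removal.

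**Figure D4:**
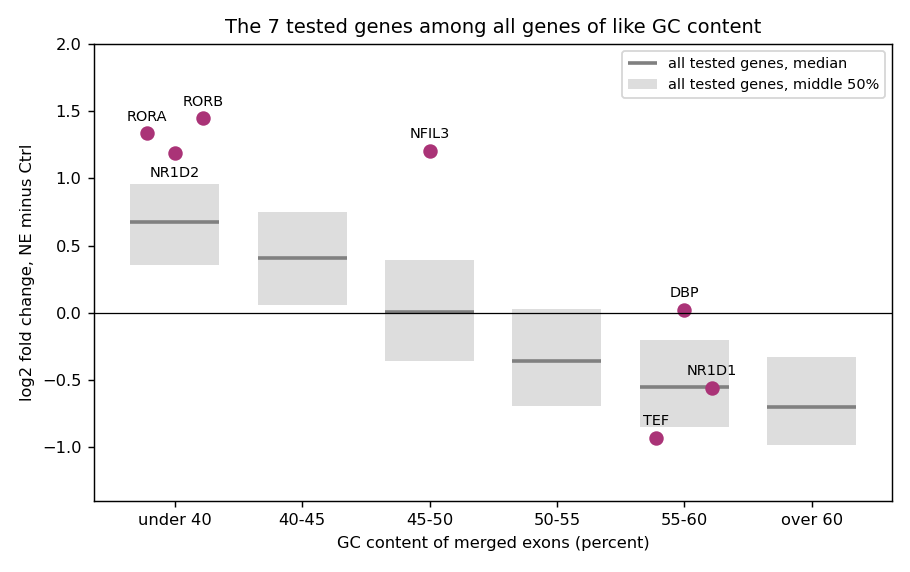
Log2 fold change, NE minus Ctrl, of the 7 tested genes (points) against the GC content of their merged exons in percent, over the median (line) and middle 50% (box) of all tested genes in each GC range. RORA, RORB, NR1D2 and NFIL3 lay above the box of their range, DBP too, TEF just below its box and NR1D1 at the median.

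Levels were compared between genes as FPKM, recomputed from the recovered reads per length of merged exons and per total of reads on genes. In Ctrl the order was NFIL3 (10.1 ± 1.65), NR1D2 (4.37 ± 1.67), NR1D1 (2.99 ± 0.146), TEF (2.13 ± 0.385), DBP (0.994 ± 0.568), RORB (0.430 ± 0.00779), RORA (0.0797 ± 0.0284) and HLF (0.00846). NR1D2 and NR1D1 were within the spread of NR1D2, and DBP and RORB within that of DBP. In NE, NFIL3 was at 25.4 ± 0.940, NR1D2 at 10.5 ± 0.740 and NR1D1 at 2.24 ± 0.375. RORB, at 1.33 ± 0.322, was then next, within its spread of TEF (1.21 ± 0.105), ahead of DBP (0.949 ± 0.140), RORA (0.218 ± 0.0370) and HLF (0.0115). The length used mattered for DBP, which was at 2.97 ± 1.70 and 2.84 ± 0.419 FPKM over its canonical transcript, close to NR1D1. The RORA level stayed below those of all the others but HLF on either length.

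Other genes of the loop were counted from fixed lists, which were chosen with earlier results of these data known. By adjusted p, 24.6% of all tested genes rose and 25.5% fell as deposited, and 13% and 19% with the GC trend removed, and the counts of each list stand against these shares. Of the 4 clock activators, 2 rose and 0 fell by adjusted p. CLOCK and BMAL1, which drive the E-box genes, were each called higher, with log2 fold changes of 1.05 (adjusted p = 0.00125) and 1.01 (adjusted p = 0.000596). They were at 0.40 (adjusted p = 0.029) and 0.78 (adjusted p = 0.00181) with the GC trend removed. Their paralogs NPAS2 (-0.21, adjusted p = 0.242) and BMAL2 (0.14, adjusted p = 0.372) did not pass as deposited. BMAL2 had a Ctrl mean of 3301 normalized counts, against 209 for BMAL1. It fell with the GC trend removed (-0.38, adjusted p = 0.0107), and NPAS2 did not pass there either (-0.15, adjusted p = 0.428). Of the 5 PER and CRY genes, CRY1 rose and CRY2 fell by adjusted p and none was called, whereas with the GC trend removed PER1 alone rose (0.88, adjusted p = 0.000609). Of 5 further E-box driven genes, all with a negative log2 fold change, 2 fell, CIART (-0.75, adjusted p = 0.0483) and USP2 (-0.85, adjusted p = 0.0306), with a list median of -0.44. Neither fall held with the GC trend removed (CIART -0.57, adjusted p = 0.172, and USP2 -0.33, adjusted p = 0.385), where WEE1 alone of the 5 fell (-0.69, adjusted p = 0.00109) and the median was -0.33. Of the 5 ROR element targets in the clock, 4 rose, of which BMAL1, CLOCK and NFIL3 were called, with a median of 1.01 as deposited and 0.40 with the GC trend removed, where 3 rose. This list shares NFIL3 with the 8 genes and CLOCK and BMAL1 with the activators.

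Genes that act on REV-ERB protein moved in both directions. Among the corepressor and turnover genes reported here, NCOR1, TBL1X, FBXW7 and HUWE1 rose by adjusted p and HDAC3 fell, and none met the fold criterion. The rises of NCOR1 (0.26, adjusted p = 0.0886) and FBXW7 (-0.02, adjusted p = 0.951) were lost with the GC trend removed. TBL1X (0.55, adjusted p = 0.0101), HUWE1 (0.60, adjusted p = 0.00383) and HDAC3 (-0.40, adjusted p = 0.0147) still passed on that scale, and TBL1XR1, which did not pass as deposited, fell (-0.33, adjusted p = 0.0133). NCOR1 and HDAC3 belong to the corepressor complex through which REV-ERB silences its targets. FBXW7 and HUWE1 are ubiquitin ligases. Heme is the REV-ERB ligand, and of 12 genes of its synthesis and breakdown 9 fell (25.5% of all tested genes) and 1, CPOX, rose (24.6%) by adjusted p, with a list median of -0.78. UROD, a synthesis enzyme, fell by 1.11 on the log2 scale (adjusted p = 9.85e-05). HMOX1, which opens the heme ring, fell by 1.37 (adjusted p = 0.000247), and BLVRB, a biliverdin reductase, by 1.05 (adjusted p = 0.000179). UROD, HMOX1 and BLVRB were at -0.77, -0.84 and -0.49 with the GC trend removed (adjusted p = 0.000194, 0.00133 and 0.00623), short of the fold criterion. With the GC trend removed 7 of the 12 fell (19% of all tested genes) and 0 rose (13%), with a median of -0.45. NPAS2, BMAL2, PER1, CRY1, CRY2, CIART, USP2, WEE1, CPOX and the corepressor and turnover genes were named after their values were seen.

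**Figure D5:**
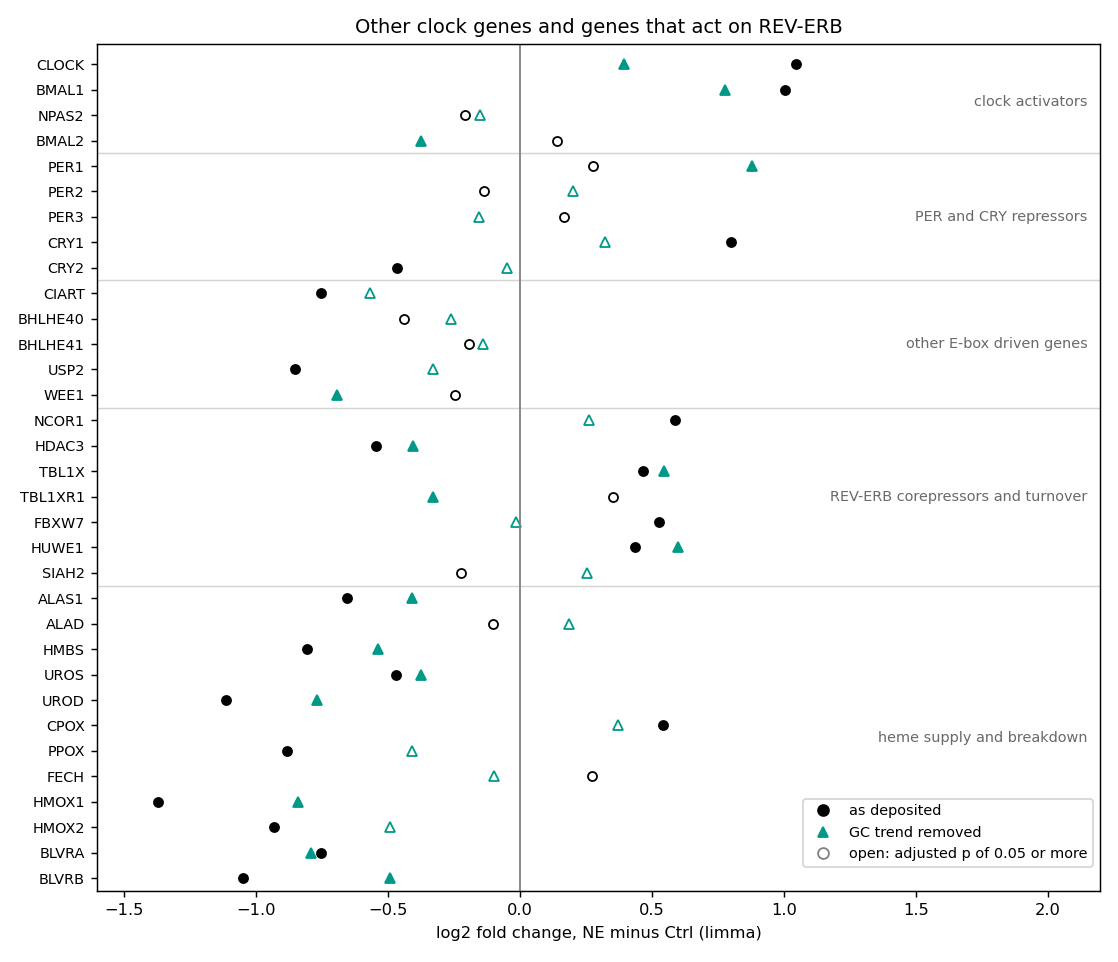
Log2 fold change, NE minus Ctrl, of the other clock genes and the genes that act on REV-ERB, as deposited (circles) and with the GC trend removed (triangles). Filled symbols have an adjusted p under 0.05 (limma). CLOCK and BMAL1 were positive and filled on both scales, whereas BMAL2 was filled only with the GC trend removed, where it was negative. Of the 12 heme genes 9 were negative and filled as deposited and 7 with the GC trend removed.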

How the data were processed

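RNA-seq of NCI-H1299 cells gave 3 Ctrl and 3 NE libraries, grouped by the treatment label. The authors aligned reads to hg38 with HISAT2 2.0.5 and counted them with featureCounts 1.5.0-p3, per the submitters' processing notes. The deposited signal is described as FPKM but holds counts per gene scaled by a size factor of each library: 100% of values were whole multiples (tolerance 0.1 read) of the value of 1 read. Each column was assigned by the letter of its group and its replicate number. Totals of 16852751 to 17979206 recovered reads per library set the precision, and the floor of 3 reads covers counting error only.

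limma 3.58.1 (R 4.3.3, trend) was run on log2(value + 1) for 15013 genes (mean normalized count 10 or more) and adjusted by Benjamini-Hochberg. Fold changes on this scale understate changes of low genes. A gene was called at an adjusted p under 0.05 with a log2 change of 1 or more in size. The GC correction removed a natural spline (5 degrees of freedom) of exon GC content, from GENCODE v44 for 25813 of 26025 genes, from each library. Ratios were tested by exact 2-sided permutation. Alternatives were other pseudocounts, filters and scalings, edgeR 4.0.16 and DESeq2 1.42.0 on recovered reads, a replicate block and each library left out. The GC correction without Ctrl replicate 3, and levels per canonical transcript, were added after the data were seen. Promoter windows are from RefSeq (GRCh38.p14), and all 8 genes matched.

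Named genes were all 8 members, called list genes, overlapping genes, CLOCK and BMAL1, and the 2 genes closest to each called member by Pearson r. Cell markers were read as levels, and the other genes named were chosen after their values were seen, as stated beside them. The members and lists were chosen with earlier results of these data known. PTPRC, SFTPC and SIK1 were not analysed here, and some list genes are not reported here.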

Additional observations from a re-analysis of the deposited data

How the results depend on the processing

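NFIL3, NR1D2 and RORB kept their direction and an adjusted p under 0.05 in all 19 alternatives run for each, with log2 fold changes of 1.06 to 1.32, 0.57 to 1.46 and 0.75 to 1.63. The 4 genes called higher became 3 without NE replicate 1, where RORA missed the threshold (816 of 15013 tested genes called higher). They also became 3 with a mean of at least 50 (823 of 11949), and stayed 4 when any other single library was left out. They became 1 under the GC correction, the GC and length correction, and the GC correction without Ctrl replicate 3. In these GC-corrected fits 513, 502 and 622 of 14955 tested genes were called higher, against 1121 of 15013 in the main fit. The genes called lower became 1 under quantile normalization and 2 with no fold criterion, and ranged from 0 to 1 when single libraries were left out (TEF, without Ctrl replicate 3 or NE replicate 1). Of 15013 tested genes, 960 were called lower under quantile normalization, 3828 with no fold criterion, 1512 without Ctrl replicate 3 and 836 without NE replicate 1. The 2 genes lower by adjusted p became 1 with no filter on the mean, 1 with the replicate block and 0 under each of the 3 GC corrections, and ranged from 1 to 3 when single libraries were left out. With the replicate block NR1D1 had an adjusted p of 0.0694 and no other member's side of the threshold changed, while the deviations of same-numbered libraries correlated at -0.16, 0.08 and -0.15, so that the numbers were not taken as pairs. NR1D1 reversed to 0.0584 under the GC and length correction and to 0.0899 under the GC correction without Ctrl replicate 3. DBP reversed to -0.00529 with a pseudocount of 10, -0.0725 with quantile normalization, -0.22 with edgeR and -0.21 with DESeq2, and ranged from -0.63 to 0.38 when single libraries were left out. The RORB to RORA ratio ranged from -0.0699 (without Ctrl replicate 2) to 0.44 in the same way. RORA had a mean under 50 and was not tested with that filter. The causes were not tested. Genes near the floor, as HLF, are limited by depth.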

Other observations

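For each gene called higher, the tested genes with the most similar profile over the 6 libraries were found by the Pearson correlation of log2(value + 1), as a description over libraries that share groups and depth. They were BBS10 and PRKAA1 for NR1D2 (r = 0.9994 each), TTC19 and ZNF175 for RORA (0.998 and 0.992), ZNF555 and R3HDM1 for RORB (0.9997 and 0.9993), and CXCL8 and BIRC2 for NFIL3 (0.9996 and 0.9995). PRKAA1 encodes a catalytic subunit of AMPK, and CXCL8 encodes interleukin-8, with a log2 fold change of 3.44. Such likeness was common, since 1817, 228, 800 and 1727 of 15006 genes had an r over 0.95 with NR1D2, RORA, RORB and NFIL3. RORA, with the fewest reads of these genes, had the fewest.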
